A study of Mus musculus with 8 samples.

Results

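Iron enters muscle fibres bound to transferrin, which the transferrin receptor carries into endosomes, where the metal is reduced and moved to the cytosol. It is then stored in ferritin, exported by ferroportin, or passed to mitochondria for heme and for iron-sulfur clusters. Iron regulatory proteins bind stem-loops in the mRNAs of ferritin and the transferrin receptor and so set their translation and stability, and muscle holds much of its iron in myoglobin and in the cytochromes of the respiratory chain. The 10 genes described here cover these steps. Tfrc and Slc11a2 act in uptake, Fth1 and Ftl1 in storage, and Slc40a1 in export. Ireb2, Aco1 and Hfe2 (now written Hjv) act in regulation, and Alas1 and Hmox1 in heme synthesis and breakdown.

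The samples were gastrocnemius and plantaris, the calf muscles, of 7-week-old female C57BL/6J mice, all wild type. In 4 mice the hind limbs were held off the cage floor for 5 days (hind limb unloading), which causes disuse atrophy, and 4 weight bearing mice were the controls. Each of the 8 RNA samples was independent and was hybridised to its own Affymetrix Mouse Gene 1.0 ST array, and values are log2 expression values per probe set. The 10 genes were chosen by name on a contrast of these same arrays, with their change in unloaded muscle already known, so their differences are given as a description, with no p for any of them. How many passed the threshold set for all probe sets is counted only beside the share of all probe sets that did. The table holds 21212 probe sets, and 9 of the 10 genes have one. No row carries the Entrez ID of Ftl1, the ferritin light chain, which is not analysed here. No filter on low values was applied.

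Array medians lay between 6.28 and 6.33. Arrays of the same group correlated at 0.996 to 0.997 over all probe sets and arrays of different groups at 0.992 to 0.994. Markers of skeletal muscle fibres had a mean log2 level of 12.78 to 12.84 in weight bearing and 12.65 to 12.70 in unloaded arrays, and all 9 were measured. Of these the myosin gene Myh2 changed most, by -0.79 on the log2 scale. The others changed by -0.15 to 0.03. Other cell types are present in whole muscle. In such bulk tissue fewer cells of a type cannot be told apart from less RNA per cell.

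In unloaded muscle the transferrin receptor and the first enzyme of heme synthesis were lower and the iron exporter was higher, while ferritin heavy chain, both iron regulatory proteins, hemojuvelin and heme oxygenase 1 differed little. At an adjusted p under 0.05 by limma, 1 of the 9 measured genes was called higher and 3 lower. Over all probe sets 12.8% were called higher and 11.0% lower, or 23.8% in either direction. In the same 4 genes the values of the groups did not overlap, where 27.5% of all probe sets showed no overlap. The median log2 change of the 9 genes was -0.02, beside 0.04 over all probe sets. Nothing is read from these counts, because the genes were chosen on this contrast.

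Tfrc, the transferrin receptor, brings transferrin-bound iron into the cell. Its log2 values were 9.81, 9.77, 9.95 and 9.44 in weight bearing replicates 1 to 4, and 7.77, 7.65, 7.60 and 7.97 in the unloaded ones. The lowest weight bearing array and the highest unloaded array were 1.47 apart. The mean went from 9.74 ± 0.22 to 7.75 ± 0.16 (SD, n = 4 arrays each), a log2 change of -1.99 (SE 0.11), or 3.98-fold lower. It was the 6th largest fall among the 21212 probe sets. With any single array left out the log2 change of Tfrc stayed between -2.09 and -1.92.

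A short stretch across an annotated start of Tfrc is shown because the receptor gene is known to respond to hypoxia-inducible factors, whose core motif is ACGTG. The sequence is from RefSeq (mouse build GRCm38.p6), chr16:32608881-32608910 on the plus strand, and the capitals mark the motif.
Tfrc: cctcggtaggtgtACGTGcggaaggaagtg
RefSeq lists 2 starts for this gene, and the motif begins at position -2 from the first, so that it straddles that start, and at -228 from the second. Read on both strands, ACGTG is in 19.6% of the 32851 mouse promoter windows searched (250 bases before to 50 after a start), so the match is a description of the sequence and not of a site in use. The longer CACGTG, which holds ACGTG, is in 7.15% of the windows and in none of the 9 windows that RefSeq has for 6 of the genes, Tfrc, Fth1, Ftl1, Ireb2, Aco1 and Alas1.

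Slc11a2 encodes DMT1, the divalent metal transporter that moves ferrous iron out of endosomes. Its values were 8.08, 8.08, 8.07 and 8.06 in weight bearing and 8.01, 7.87, 7.95 and 7.81 in unloaded muscle. All unloaded arrays were below all weight bearing ones, by a gap of 0.06. The change was small, from 8.07 ± 0.0082 to 7.91 ± 0.09 (SD, n = 4 arrays each), or 1.12-fold lower. The weight bearing arrays were unusually close to each other, with only 0.170% of probe sets showing a smaller SD in that group. With any single array left out the log2 change of Slc11a2 was between -0.20 and -0.13. Its call was kept in only 1 of the 8 fits with 1 array left out and in 4 of the 8 other settings.

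Fth1, the ferritin heavy chain, oxidises iron as ferritin takes it up. It read 12.84, 12.85, 12.86 and 12.80 in weight bearing and 12.85, 12.87, 12.88 and 12.82 in unloaded muscle. The groups overlapped and the log2 change was 0.02. These values lie near the top of the scale, where the highest value on any array was 13.27, and it was not tested whether the array still resolves differences there. Ferritin heavy chain also has processed copies elsewhere in the genome, and no source used here says how probes shared with them were treated. Quantile normalization moved the log2 change of Fth1 to 0.09 and that of Hfe2 to 0.08.

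Slc40a1, ferroportin, is the known exporter of iron from cells. Its values were 8.11, 7.97, 7.97 and 7.90 in weight bearing and 8.67, 8.54, 8.67 and 8.24 in unloaded muscle. All unloaded arrays were above all weight bearing arrays, with unloaded replicate 4 the closest to them. The mean rose from 7.99 ± 0.09 to 8.53 ± 0.20 (SD, n = 4 arrays each), a log2 change of 0.54 or 1.46-fold higher. Without unloaded replicate 4 the log2 change was 0.64, and without any other single array it was between 0.50 and 0.58. The call of Slc40a1 was kept in 8 of the 8 fits with 1 array left out and in 7 of the 8 other settings. It was lost by the methods' t-test. Macrophages are rich in ferroportin. Of 11 measured macrophage markers 7 were lower, 0 higher and 4 not called. The mean log2 level of the list was 7.12 to 7.40 in weight bearing and 6.76 to 7.01 in unloaded arrays. The part of macrophages in the higher Slc40a1 was not tested.

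**Figure D1:**
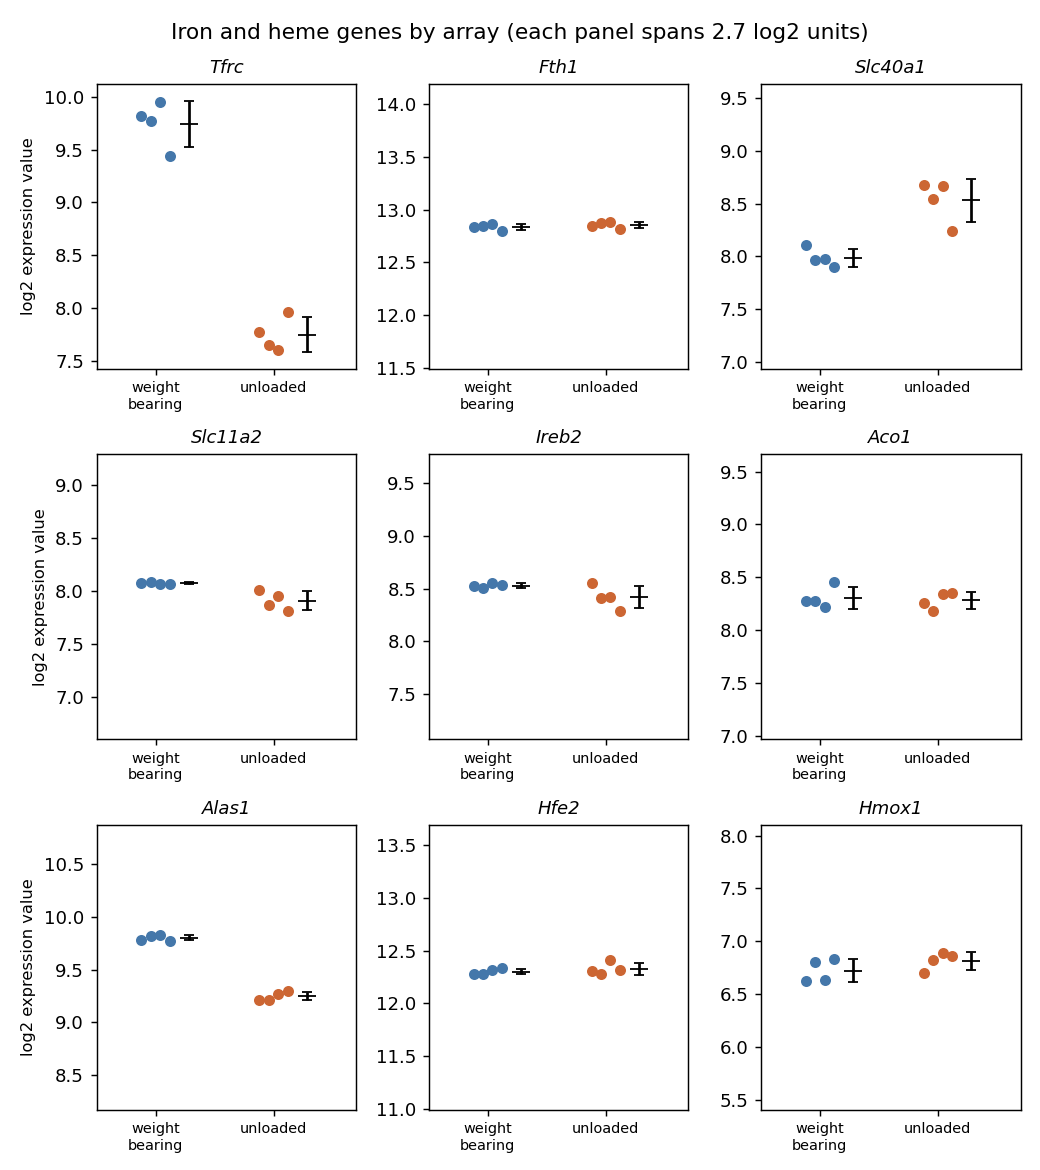
Log2 expression value (vertical axis) of each of the 9 measured iron and heme genes on the 4 weight bearing (blue) and 4 unloaded (orange) arrays, 1 point per array, with the mean and SD as a bar beside them; every panel spans the same number of log2 units. Tfrc falls from 9.74 to 7.75 and Alas1 from 9.80 to 9.25, Slc40a1 rises from 7.99 to 8.53, and Fth1, Aco1, Hfe2 and Hmox1 overlap between the groups.

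The iron regulators differed less. Ireb2, iron regulatory protein 2, was at 8.52, 8.50, 8.55 and 8.54 in weight bearing and at 8.55, 8.41, 8.42 and 8.29 in unloaded muscle. Unloaded replicate 1 lay as high as the controls and the other unloaded arrays below them, and the log2 change was -0.11. Aco1, iron regulatory protein 1, which serves as a cytosolic aconitase when it holds an iron-sulfur cluster, was at 8.27, 8.27, 8.21 and 8.45 in weight bearing and at 8.26, 8.18, 8.34 and 8.35 in unloaded muscle. The groups of Aco1 overlapped fully, with a log2 change of -0.02. Hfe2, hemojuvelin, a coreceptor for bone morphogenetic proteins in hepcidin control that skeletal muscle expresses strongly, was at 12.28, 12.28, 12.31 and 12.33 in weight bearing and at 12.30, 12.28, 12.41 and 12.31 in unloaded muscle. Its groups overlapped too, with a log2 change of 0.02.

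Alas1, 5-aminolevulinate synthase 1, makes the first precursor of heme in cells other than red cell precursors. Its values were 9.79, 9.82, 9.83 and 9.78 in weight bearing and 9.22, 9.22, 9.27 and 9.30 in unloaded muscle. The spread within each group was small, and the groups were 0.48 apart at their closest. The mean went from 9.80 ± 0.03 to 9.25 ± 0.04 (SD, n = 4 arrays each), a log2 change of -0.55 or 1.47-fold lower. Without any 1 array it stayed between -0.57 and -0.54. By size this fall was 373rd among the probe sets, well behind that of Tfrc.

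A stretch of the Alas1 promoter is shown because the gene is a known target of nuclear respiratory factor 1, whose core motif is GCGCATGCGC. It lies at chr9:106247906-106247935 on the minus strand (RefSeq, GRCm38.p6), with the motif in capitals.
Alas1: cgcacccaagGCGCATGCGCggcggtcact
The motif, which reads the same on both strands, begins 29 bases after one annotated start and at position -195 from the other. It was in 0.971% of the 32851 windows, and among the windows of the 6 genes only in those of Alas1. ACGTG was found among them only in the windows of Tfrc.

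Hmox1, heme oxygenase 1, breaks heme down and frees its iron. It was at 6.62, 6.81, 6.63 and 6.83 in weight bearing and at 6.70, 6.82, 6.89 and 6.86 in unloaded muscle. The groups overlapped, and the log2 change was 0.09. Fth1, Ftl1 and Alas1 are on the study's list of genes with more Bcl-3, a coactivator of NF-kB p50, at their promoters in unloaded muscle, and on the arrays Fth1 changed by 0.02 and Alas1 by -0.55 on the log2 scale. Of the further iron genes described below, Iscu and Tmprss6, which were higher, and Bola1, Cycs, Hspa9 and Isca1, which were lower, are on that list too. Tfrc, Slc40a1 and Slc11a2 are not on it, nor are most of the further iron genes, Steap3 and Slc25a28 among them. Whether being on that list goes with a change on the arrays was not tested.

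The steps around these genes were followed in 94 further iron and heme genes in 7 lists, of which 88 matched a probe set. Of these 9 were higher and 18 lower in unloaded muscle (limma adjusted p under 0.05), or 30.7%, beside 23.8% of all probe sets. The lists were chosen with earlier results of these data known, so this share and those of the single lists are descriptions. The median log2 change over the 88 was -0.003. By the methods' t-test the counts were 5 and 11. Each list other than that for storage held called genes beside uncalled ones.

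**Figure D2:**
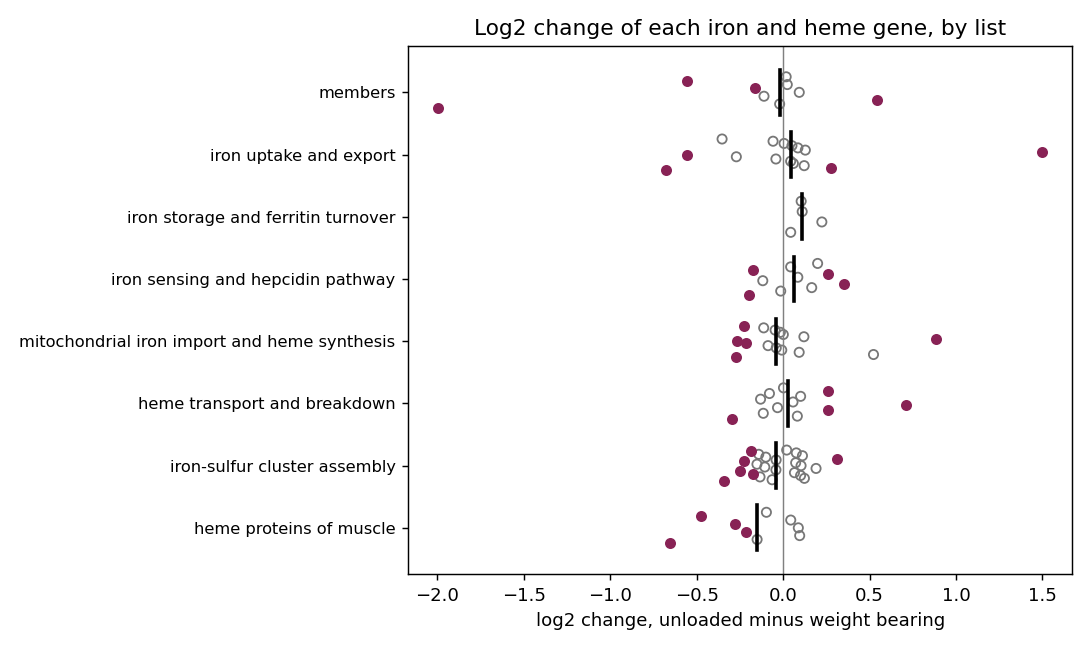
Log2 change (horizontal axis, unloaded minus weight bearing) of the 9 measured members, in the top row, and of the 88 measured genes of the 7 lists, 1 point per gene, filled where called by limma and open where not, with the median of each row as a black line. Tfrc at -1.99 and Lcn2 at 1.50 are the extremes, and the 4 storage genes are all open.

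Of 15 genes of iron uptake and export, 2 were higher and 2 lower (median log2 change 0.04). The genes that fell were Steap3 and Cybrd1, both reductases, while the related reductases Steap2 (log2 change -0.27, limma adjusted p = 0.10) and Steap4 (0.13, 0.145) were not called. Steap3 reduces ferric iron in the endosome that carries the transferrin receptor. It was at 9.25, 9.34, 9.19 and 9.51 in weight bearing and 8.62, 8.64, 8.73 and 8.61 in unloaded muscle, 1.60-fold lower with no overlap (limma adjusted p = 1.6e-04). Cybrd1, a ferric reductase of the plasma membrane, went from 6.19 ± 0.18 to 5.64 ± 0.11 (SD, n = 4 arrays each, limma adjusted p = 0.0018), also without overlap. Mcoln1, a channel that releases iron from late endosomes and lysosomes, rose by 0.28 on the log2 scale (limma adjusted p = 0.0034).

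Lcn2, lipocalin 2, which binds iron-laden siderophores, had a higher mean in unloaded muscle, but the groups overlapped. It was at 5.86, 7.85, 6.10 and 5.91 in weight bearing and 8.16, 7.82, 8.21 and 7.53 in unloaded arrays (log2 change 1.50, limma adjusted p = 0.019). Weight bearing replicate 2 lay with the unloaded arrays. Without it the log2 change was 1.97 (limma adjusted p = 7.9e-05). The call was lost without weight bearing replicate 1 (adjusted p = 0.052) or 3 (0.0503) or unloaded replicate 3 (0.0532). It was also lost by the methods' t-test (0.147) and by limma with an intensity trend and robust variance (0.0643). Weight bearing replicate 2 also had the highest values of the red cell genes Slc4a1, Epb42 and Rhag, the last at a low 3.92. For Ermap it was level with unloaded replicate 2 (5.816 and 5.814). Hbb-bt, Klf1 and Alas2 were highest on unloaded arrays. The part of weight bearing replicate 2 in the result for Lcn2 was not tested further. The other uptake genes, among them transferrin itself, had log2 changes between -0.35 and 0.13 and were not called.

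In the storage list 0 of 4 genes were called (median log2 change 0.11). Those with the smallest p were Pcbp1, an iron chaperone that loads ferritin (0.11, limma adjusted p = 0.13), and Ftmt, mitochondrial ferritin (0.10, adjusted p = 0.26). Pcbp1 was higher in all 4 unloaded arrays (9.99 to 10.04) than in any weight bearing array (9.83 to 9.98). Ftmt became a call without unloaded replicate 1 (adjusted p = 0.035).

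Among 10 measured genes of iron sensing and the hepcidin pathway, 2 were higher and 2 lower (median log2 change 0.06). Furin and Tmprss6, proteases known to cut hemojuvelin, were both higher while hemojuvelin mRNA itself was within its spread. Furin was at 8.49, 8.37, 8.42 and 8.39 in weight bearing and 8.73, 8.76, 8.84 and 8.75 in unloaded muscle (log2 change 0.35, limma adjusted p = 7.8e-04). Tmprss6 rose by 0.26 (adjusted p = 0.028), at low levels of 5.64 to 5.924 in weight bearing and 5.918 to 6.17 in unloaded arrays, which overlapped slightly. The call of Tmprss6 was lost without weight bearing replicate 1 or 3 or unloaded replicate 2, 3 or 4 (adjusted p = 0.0508 to 0.0739). The methods' t-test lost it too (0.0842).

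The 2 that fell were Hfe, which binds the transferrin receptor, and Epas1, hypoxia-inducible factor 2 alpha, whose mRNA carries an iron-responsive element. Hfe changed by -0.20 (limma adjusted p = 0.048) and Epas1 by -0.18 (adjusted p = 0.043). Both calls depended on single arrays. That of Hfe was lost without any single array other than unloaded replicate 1 (adjusted p = 0.064 to 0.118), and that of Epas1 without any other than weight bearing replicate 3 or unloaded replicate 4 (0.0822 to 0.103). With the replicate number as a block they were at 0.0525 and 0.0597.

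Mitochondrial iron import and heme synthesis had 1 higher and 4 lower of 15 measured genes (median log2 change -0.04). Slc25a28, mitoferrin 2, which imports iron into mitochondria of most tissues, rose the most. It was at 8.52, 8.46, 8.55 and 8.67 in weight bearing and 9.42, 9.42, 9.45 and 9.45 in unloaded muscle. The unloaded arrays were within a few hundredths of each other and all far above the controls, 1.84-fold higher (limma adjusted p = 7.8e-06). Its paralog Slc25a37, mitoferrin 1, had a log2 change of -0.02 (adjusted p = 0.907).

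The enzymes that act after Alas1 were lower at some steps. Alad, which joins the product of Alas1 into a pyrrole, fell by 0.26 on the log2 scale (limma adjusted p = 0.0086, 0.051 by the methods' t-test). Cpox, coproporphyrinogen oxidase, fell by 0.22 (adjusted p = 0.015). Tmem14c, which takes part in porphyrin import, fell by 0.23 (adjusted p = 0.0093). Slc25a39, a mitochondrial carrier needed for glutathione import and heme synthesis, fell by 0.27 (adjusted p = 0.0040). Each of these 4 genes had all unloaded arrays below all weight bearing ones. Uros (-0.11), Urod (0.09), Ppox (0.002) and the last enzyme, Fech (0.12), were not called, with limma adjusted p of 0.122, 0.276, 0.984 and 0.166.

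Alas2, the form of aminolevulinate synthase of red cell precursors, had a higher mean in unloaded muscle and was not called. It was at 7.39, 7.85, 8.04 and 8.21 in weight bearing and 8.74, 8.04, 8.60 and 8.19 in unloaded muscle (log2 change 0.52, limma adjusted p = 0.071), so the groups overlapped. It became a call without weight bearing replicate 4 (0.044) or unloaded replicate 2 (0.0483), or without the dimmest 50% of probe sets (0.0485). Hbb-bt, a beta globin, was at 7.66, 8.33, 8.65 and 8.66 in weight bearing and 9.11, 7.96, 8.98 and 8.55 in unloaded muscle. Both genes were lowest on weight bearing replicate 1 and highest on unloaded replicates 1 and 3. Of 14 erythroid markers 6 matched a probe set and 0 were called by limma, and their mean log2 level was 5.43 to 6.03 in weight bearing and 5.63 to 5.81 in unloaded arrays. Globin genes are near-identical copies, so the signal of Hbb-bt may include others. How much red cell RNA contributes to Alas2 or Tfrc was not tested.

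**Figure D3:**
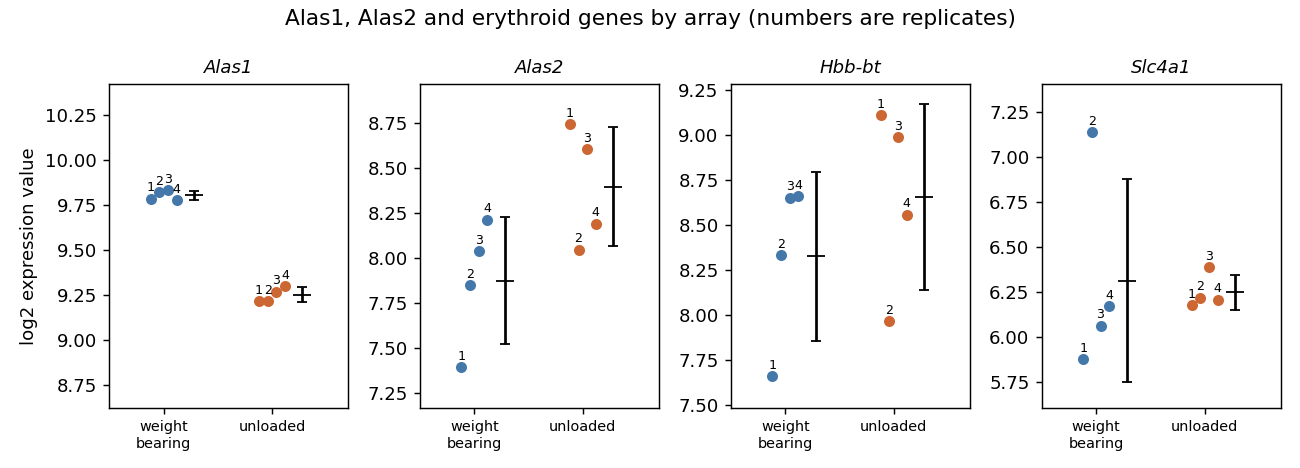
Log2 expression value (vertical axis) of Alas1, Alas2 and the erythroid genes Hbb-bt and Slc4a1 on the weight bearing (blue) and unloaded (orange) arrays, 1 numbered point per replicate, with the mean and SD as a bar. Alas1 separates the groups (9.80 against 9.25), whereas Alas2 and Hbb-bt share their lowest array, weight bearing replicate 1, and Slc4a1 is highest on weight bearing replicate 2.

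Of 12 genes of heme transport and breakdown, 3 were higher and 1 lower (median log2 change 0.03). Slc48a1, which moves heme out of lysosomes, rose by 0.26 on the log2 scale, from 9.94 to 10.04 in weight bearing arrays to 10.19 to 10.34 in unloaded ones (limma adjusted p = 0.0044). Bach1, a repressor of heme oxygenase 1 that heme itself inactivates, rose by 0.26 (adjusted p = 0.014, 0.081 by the methods' t-test). Both separated the groups, and the constitutive heme oxygenase Hmox2 was at -0.11 (adjusted p = 0.117).

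Hp, haptoglobin, which binds free hemoglobin, had a log2 change of 0.71 (limma adjusted p = 0.033), with unloaded replicate 3 at 6.58 among the controls (6.31 to 6.83) and the other unloaded arrays at 7.37 to 7.73. Slc46a1, a folate transporter also described as a heme carrier, was at -0.30 (adjusted p = 0.041). The call of Hp was lost without any single array other than weight bearing replicate 2 or unloaded replicate 3 (adjusted p = 0.0635 to 0.0818). It was also lost by the methods' t-test (0.164) and by limma with an intensity trend and robust variance (0.0717). The call of Slc46a1 was lost without any single array other than weight bearing replicate 1 or unloaded replicate 4 (limma adjusted p = 0.0668 to 0.0951). The methods' t-test (0.143) and limma with array weights (0.0592) lost it too.

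Iron-sulfur cluster assembly had 1 higher and 5 lower of 23 measured genes (median log2 change -0.04). Iscu, the scaffold on which the cluster is built, rose from 11.11 ± 0.07 to 11.42 ± 0.03 (SD, n = 4 arrays each, limma adjusted p = 0.0016). Some of the factors that act after it were lower. The log2 change was -0.34 for Glrx5 (adjusted p = 9.1e-04), -0.23 for Bola3 (0.0092), -0.25 for Isca1 (0.043) and -0.18 for Bola1 (0.021). Hspa9, the mitochondrial chaperone that helps release the cluster from Iscu, was at -0.17 (0.020) and was named after its values were seen.

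The scaffold was higher and the factors named with it were lower, but the naming itself selected called genes, so nothing is read from this contrast. Of the 23 genes 26.1% were called, beside 23.8% of all probe sets. The groups did not overlap for Iscu, Glrx5, Bola3, Bola1 and Hspa9. Over the whole list 3 genes were higher and 6 lower without overlap, where 27.5% of all probe sets showed no overlap in either direction. The call of Isca1 was lost without any single array other than weight bearing replicate 2 or unloaded replicate 4 (limma adjusted p = 0.0592 to 0.114). Bola1 lost its call without weight bearing replicate 1 or unloaded replicate 2 or 4 (0.0558 to 0.0621), and Hspa9 without weight bearing replicate 3 or unloaded replicate 2 or 4 (0.0501 to 0.0554). The cysteine desulfurase Nfs1, which supplies the sulfur, was at 0.02 (adjusted p = 0.802). Among other late factors Nfu1 was at 0.10 (0.199), Isca2 at -0.13 (0.0777) and Iba57 at -0.15 (0.165), or -0.08 as the mean of its probe sets.

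**Figure D4:**
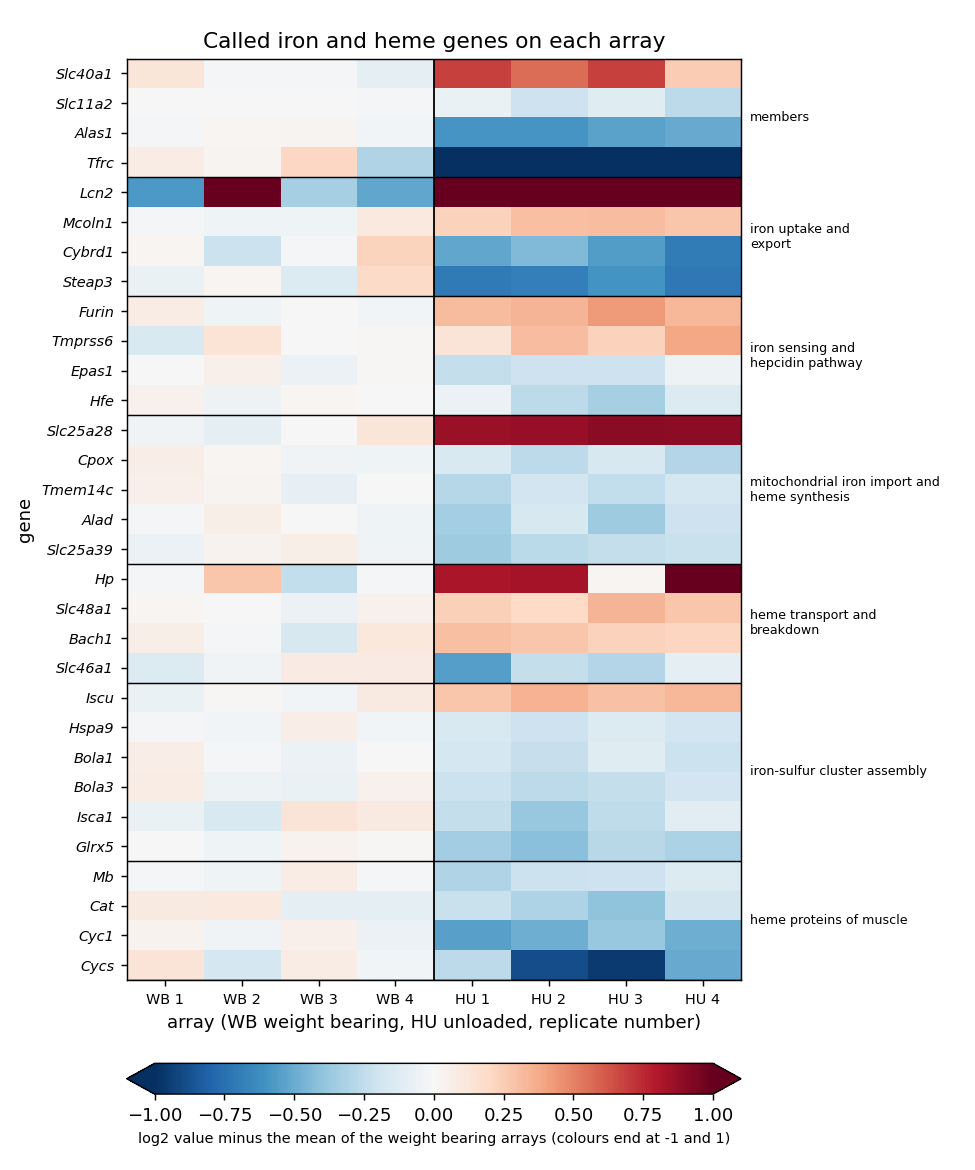
Log2 value minus the mean of the weight bearing arrays (colour, ending at -1 and 1) of the 4 called members and the 27 called genes of the lists, 1 row per gene and 1 column per array (WB weight bearing, HU unloaded). Tfrc is the darkest blue row, Slc25a28 is evenly red on all unloaded arrays, and weight bearing replicate 2 stands out for Lcn2.

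The list for heme proteins of muscle had 0 higher and 4 lower of 9 measured genes, with a median log2 change of -0.15. Besides heme proteins it holds the cytochrome b5 reductases Cyb5r1 and Cyb5r3, which were not called. Cyc1, the heme subunit of respiratory complex III known as cytochrome c1, fell 1.39-fold (limma adjusted p = 2.2e-04), and Cycs, cytochrome c, was 1.57-fold lower (0.0086, 0.0955 by the methods' t-test). The signal of Cycs was low, at 5.84 to 6.14 in weight bearing and 5.05 to 5.75 in unloaded arrays. All of these values lay below the array medians (6.28 to 6.33). Catalase, Cat, was lower by a log2 change of -0.28 (0.015, 0.057 by the methods' t-test). Mb, myoglobin, the oxygen store of red muscle, was at 12.44, 12.42, 12.54 and 12.45 in weight bearing and 12.16, 12.25, 12.26 and 12.33 in unloaded muscle (log2 change -0.21, adjusted p = 0.015). In all 4 genes every unloaded array was below every weight bearing one. The fibre type marker Myh2, the fast oxidative IIa myosin, was lower too (log2 change -0.79, limma adjusted p = 9.3e-04, 0.0561 by the methods' t-test), as was Acta1, skeletal actin (-0.15, 0.029). The call of Acta1 was lost without any single array other than weight bearing replicate 4 or unloaded replicate 1 (0.0577 to 0.0683). The other 7 markers of muscle fibres had changes between -0.10 and 0.03 and were not called.

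The genes whose pattern over the 8 arrays was closest to that of Tfrc, each set relative to its own weight bearing mean, were not iron genes. Among 18783 genes the nearest was Col1a2, a chain of type I collagen, with a root mean square difference of 0.19 on the log2 scale. Nrep (0.27), the matrix proteins Postn (0.29) and Kera (0.32), and Fabp3, the fatty acid binding protein of muscle (0.39), came next. The nearest other iron gene was Steap3, 202nd in that order. This measure follows the size of the change as well as its shape.

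Some markers of other cells were lower in unloaded muscle, as Tfrc was, while others were higher or not called. Of 6 fibroblast markers 4 were lower and 0 higher, with a mean log2 level of 9.92 to 10.20 in weight bearing and 8.74 to 8.95 in unloaded arrays. Within that list the log2 change was -2.48 for Col1a1, -2.02 for Col1a2 and -1.25 for Col3a1 (highest limma adjusted p = 1.2e-04), while Dcn (-0.02) and Pdgfra (-0.11) were not called. Among macrophage markers it was -0.76 for Adgre1, -0.69 for Mrc1 and -0.59 for C1qb (highest adjusted p = 0.0010). Of 5 endothelial markers only Kdr was called (-0.47, adjusted p = 6.6e-04). Of 4 satellite cell markers Cdh15 rose by 0.68 (adjusted p = 2.6e-05) and Myf5 by 0.19 (0.045, lost without any array other than weight bearing replicate 1, 0.0511 to 0.115), and Vcam1 fell by 0.46 (0.015, 0.133 by the methods' t-test). The part of these cells in the lower Tfrc or the higher Slc40a1 was not tested.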

How the data were processed

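The authors labelled total RNA of 8 mice, hybridised it to Affymetrix Mouse Gene 1.0 ST arrays and ran RMA, which corrects background, equalises the arrays and summarises probes, on custom probe sets keyed by Entrez ID. The deposited values are log2 expression values per probe set. For RMA the version, and for the probe sets the release and build, were not given in the sources used here.

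Values were used as deposited, with no filter, and 0 sample columns were left unused. Names came through the platform annotation, in which 18786 probe sets have 1 symbol, 6 several and 2420 none, and list genes not matched there are not analysed here. The group means were tested in R 4.3.3 by limma 3.58.1 (two-sided moderated test after lmFit and eBayes). Benjamini-Hochberg adjustment ran over 21212 probe sets, and an adjusted p under 0.05 made a call. Python 3.11.15 was used otherwise. A fold is 2 raised to the log2 change. With 4 arrays a group, their number sets the precision. The fit was tested on simulated data.

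The members and gene lists were chosen with earlier results of these data known. Genes named were all members; per iron list up to 4 called genes in each direction, or the 2 of smallest p where none was called; per marker list up to 3 called genes; and the 5 nearest to Tfrc. Hspa9, Alas2 and genes given with uncalled values outside this rule were named after their values were seen.

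Alternatives were the methods' t-test (run with unequal variances, a form the methods do not specify), an intensity trend with robust variance, array weights, dropping the dimmest 25% or 50% of probe sets, the replicate number as a block, quantile normalization, setting array medians to 0, the mean of several probe sets and leaving out each array in turn.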

Additional observations from a re-analysis of the deposited data

Results flagged for a closer look

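In 4 of the 110 sets of 4 arrays checked, 1 per named gene and group, a single array stood far from the other 3 (Dixon's test at 95%), where chance flags about 1 in 20. Lcn2 in weight bearing replicate 2 was at 7.85, with the others at 5.86 to 6.10. Ftmt in unloaded replicate 1 was at 4.80, with the others at 5.04 to 5.07. Epas1 in unloaded replicate 4 was at 9.89, with the others at 9.71 to 9.73. Col3a1 in unloaded replicate 1 was at 7.30, with the others at 7.49 to 7.53. No member was among them.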

How the results depend on the processing

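No member changed the direction of its called difference under any setting tried. Their counts below are descriptions, since the members were chosen on this contrast. By the methods' t-test 1393 probe sets were higher and 1374 lower, with 0 members higher and 2 lower, and 5 other iron and heme genes higher and 11 lower. With 1 array left out, the count of higher probe sets ran from 1802 to 2852 and that of lower iron and heme genes outside the members from 12 to 17. The other iron genes that were higher ran from 6 to 10. Of 731 alternative values of 47 genes other than members (those named by the rule or after it, and Iba57 for its several probe sets), 639 kept direction and side of the threshold, 88 lost the call, 4 gained it and 0 reversed. The cause of these losses was not tested. A fit with the replicate number as a block gave 2455 higher probe sets and 17 lower iron and heme genes. The numbers were not taken as pairs in the main fit. Same-numbered arrays deviated together at low correlations of 0.02, 0.04, 0.12 and 0.10. The highest with an array of another number were 0.04, 0.03, 0.10 and 0.03, so this check cannot settle whether the numbers pair the samples. Array medians are equal by construction of RMA to within a few hundredths, so a general shift of all mRNA cannot be seen. Quantile normalization moved the median log2 change of all probe sets from 0.04 to 0.02. Probe sets near the top of the scale, such as those of Fth1, Hfe2 and Mb, and those of low signal, such as Ftmt, Tmprss6 and Cycs, limit what these arrays resolve.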
